A study of Solenopsis japonica with 2 samples.

Results

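Membrane transporters are the proteins that carry sugars, amino acids, vitamins, ions and waste products across cell membranes. Most belong to the solute carriers, which let a solute pass along its own gradient or couple it to the flow of sodium, protons or another solute. The others described here are ATP-binding cassette (ABC) proteins, many of which spend ATP to pump their cargo. In insects these proteins are known from the gut, where nutrients are taken up, from the Malpighian tubules, where ions and organic wastes are secreted, and from nerve endings, where transmitters and choline are cleared. Here they were followed in workers of the fire ant Solenopsis japonica kept in the cold.

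The transporter contigs were taken by name from the deposited comparison of 2 RNA-seq libraries. A contig is an assembled transcript, and it was taken when the description of its best match in the protein (NR) or nucleotide (NT) database held the words solute carrier, transporter, cotransporter, exchanger or ATP-binding cassette. These words stood in the descriptions of 97 of the 4487 contigs of the table. Names with trehalose, Tret1, synap or vesicular were left out, which removed 15 contigs, and 82 transporter contigs remained. The names alone decided the choice, within a table that holds only contigs differing between the libraries.

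One set of wild type adult workers, T9, spent 24 h at 9 °C, and the control set, T25, spent the same time at 25 °C. RNA of pooled whole bodies gave 1 library per temperature. Both groups came from colonies kept at the control temperature and given sucrose solution and mealworms. The labels give no replicate, so no difference could be set against the spread between pools of ants, and no p-value is given. In whole bodies, fewer cells of a type and less RNA per cell cannot be told apart.

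The counts of the table added up to 7176142 in the T9 library and 11259918 in the T25 library, and they were scaled by library sizes of 53237356 for T9 and 49264352 for T25, which the deposited log2 values carry. Every contig of the table differs at least 2.35-fold between the libraries by these scaled counts, so transporters that differed less were not analysed here. A fold below is the ratio of scaled counts, and the exact 95% interval (Clopper-Pearson) in parentheses covers counting error only. A log2 ratio is T9 over T25 after 1 was added to each scaled count. Words for gut, fat body, muscle, eye, antenna and nerve genes each found contigs, but the table holds no contig with a count of 0, so their presence in both libraries is no check of the tissue. The contig with the largest counts of the table matches the mitochondrial genome of S. invicta and had 1880393 counts in T9 and 8778590 in T25. Contigs with the gut words (trypsin, chymotrypsin, maltase and alpha-glucosidase) were higher in T9 in 21 of 27 cases and summed to 318775 counts in T9 and 11730 in T25. Contigs with the nerve words (acetylcholine receptor, glutamate receptor and synaptotagmin) were lower in 17 of 21 cases and summed to 3336 counts in T9 and 5250 in T25. The fat body words (vitellogenin, hexamerin and fatty acid synthase) had 26 of 27 contigs higher, with sums of 251493 in T9 and 57863 in T25. The 1 contig on the lower side had a log2 ratio of -3.117. The study lists a hexamerin-like contig among its down-regulated genes. It also lists there an arylphorin, a storage protein that these words do not find. Lower were 10 of 13 muscle contigs (48733 counts in T9, 95216 in T25), 46 of 48 antennal odorant receptor and odorant-binding contigs (3514 in T9, 24573 in T25) and both opsin or arrestin contigs (12 in T9, 76 in T25). Over all contigs of the table, 54.7% were higher in T9. The gut and fat body contigs had median totals of 379 and 144 counts. From 100 counts to below 1000, 53.2% of contigs with a nucleotide match were higher. Median totals were 69 for nerve, 97 for muscle, 37 for antenna and 44 for eye contigs. Under 100 counts, 41.5% of contigs with a nucleotide match were higher. The part of these tissues in the transporter results was not tested.

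Among the 82 transporter contigs, 57 had the higher scaled count in the T9 library and 25 the lower one. The higher share was 69.5%, beside 54.7% over all contigs of the table and 53.1% over the 2117 contigs with a nucleotide match, which all 82 transporter contigs have. At least 4-fold higher in T9 were 27 (32.9%), beside 33.6% of all contigs and 28.2% of those with a nucleotide match. At least 4-fold lower were 16 (19.5%), beside 28% of all contigs and 25.9% of those with a nucleotide match. The transporters thus stood more often on the higher side than the table as a whole, while their share past 4-fold on that side was close to the background. Their median log2 ratio was 1.61, against 1.45 over all contigs. Among those on the higher side alone it was 1.87, against 2.15 over all contigs on that side. These values join contigs of unlike counts.

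**Figure D1:**
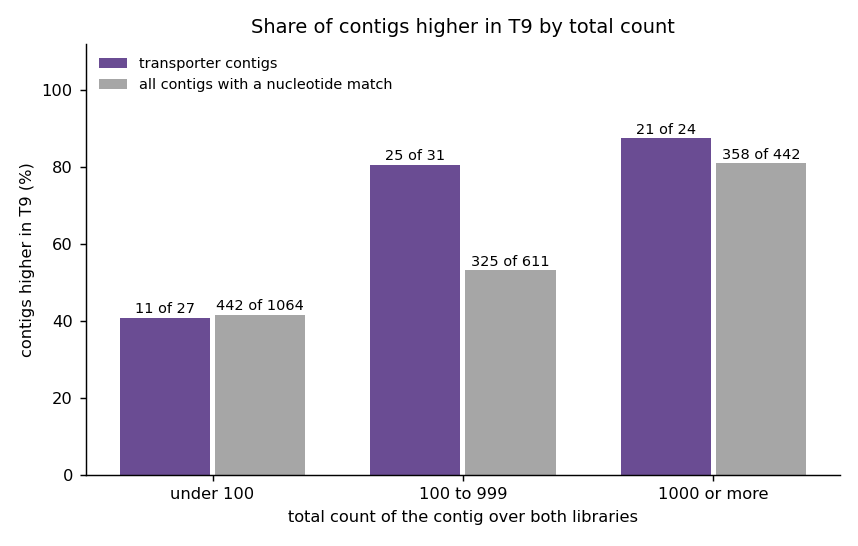
Share of contigs higher in the T9 library (vertical axis, percent) by the total count of the contig over both libraries (horizontal axis), for transporter contigs (purple) and for all contigs with a nucleotide match (grey), with the number of contigs above each bar. The bars lie close together under 100 counts, at 40.7% and 41.5%, and furthest apart from 100 counts to below 1000, at 80.7% and 53.2%.

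The side on which a contig lay went with its count. With a total under 100 counts, 11 of 27 transporter contigs were higher in T9 (40.7%), beside 41.5% of all contigs with a nucleotide match. From 100 counts to below 1000, 25 of 31 were higher (80.7%), beside 53.2%. With 1000 counts or more, 21 of 24 were higher (87.5%), beside 81%. By side, the transporters therefore differed from other named contigs in the middle range of counts, and much less at its ends. From the lowest to the highest range, 5 of 27, 14 of 31 and 8 of 24 transporter contigs were at least 4-fold higher. Among nucleotide-matched contigs these were 305 of 1064, 150 of 611 and 142 of 442. On the higher side alone, the median log2 ratio was 1.85, 2.12 and 1.83 for transporters. It was 2.23, 1.89 and 1.775 for nucleotide-matched contigs. The transporter contigs on the higher side had a median total of 607 counts and those on the lower side a median of 61.

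Summed over all transporter contigs, 95461 counts lay in the T9 library and 27902 in the T25 library, 3.17-fold higher in T9. Without the contig of largest counts the sums were 74522 in T9 and 24815 in T25, 2.78-fold higher. The 5 contigs with the largest totals held 54.2% of the transporter counts in T9 and 35.1% in T25. Levels per length, as the deposited FPKM, reached 10 in 17 contigs in T9 and in 7 contigs in T25. The highest level was 79.4 FPKM in T9 and 21.9 FPKM in T25, each in a different contig.

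**Figure D2:**
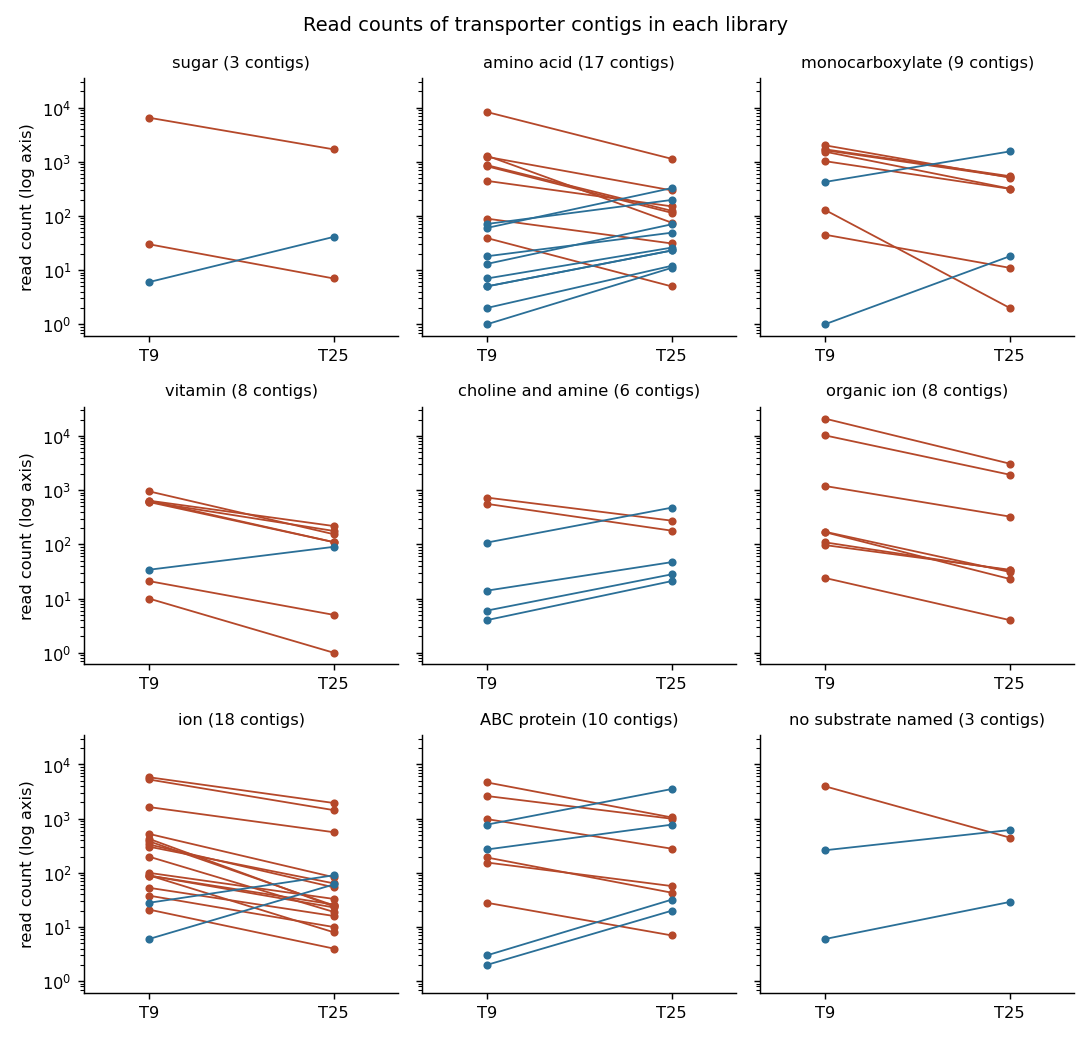
Read count of each transporter contig in the T9 and the T25 library (vertical log axis, counts not scaled), with 1 line per contig and 1 panel per substrate group; red lines mark contigs with more counts in T9 and blue lines those with more in T25. All 8 organic ion contigs have more counts in T9 than in T25, while the amino acid panel holds 8 red and 9 blue lines.

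By the substrate that the description names, the contigs formed groups for ions (18), amino acids (17), monocarboxylates (9), vitamins (8), organic ions (8), choline and amines (6) and sugars (3). A further 10 were ABC proteins whose names give no substrate, 3 solute carriers named none, and no description named a lipid. Organic ion, ion, vitamin and monocarboxylate transporters lay mostly on the higher side in T9, amino acid transporters on both sides, and choline transporters on the lower side. These shares stand beside those of other contigs of like counts. The monocarboxylate contigs, with a median total of 1852 counts, were higher in 77.8% of cases, near the 81% of all nucleotide-matched contigs with 1000 counts or more. The median totals of the amino acid (120), ion (175.5), organic ion (196.5) and vitamin (732.5) groups lay in the range where 53.2% of nucleotide-matched contigs were higher. For the choline contigs the shares are given with them below.

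**Figure D3:**
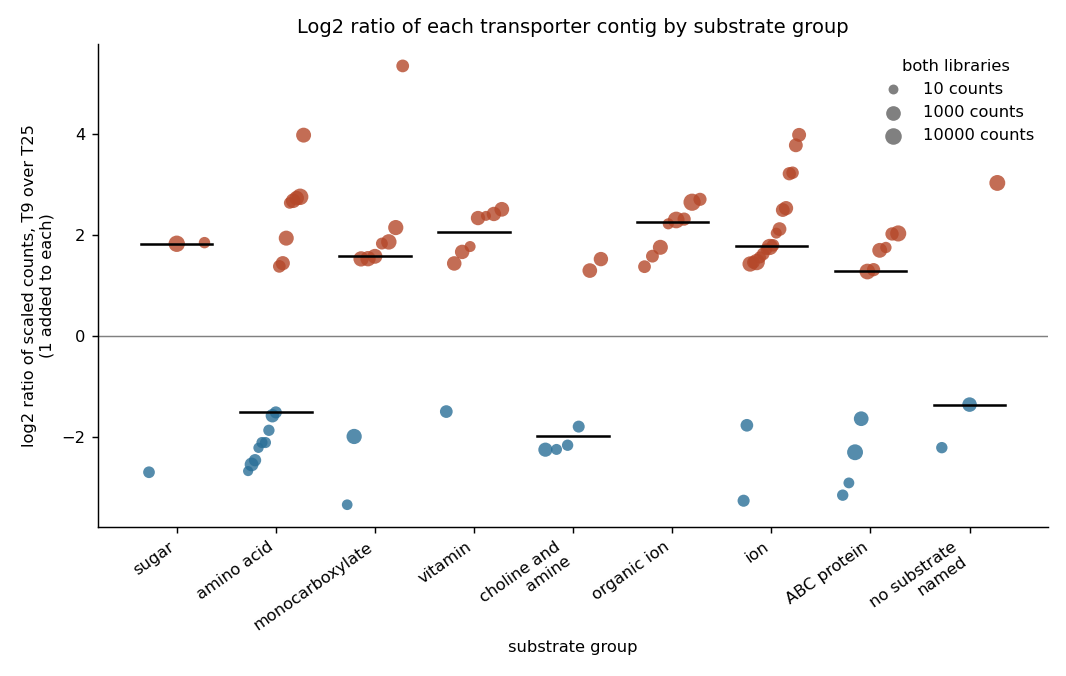
Log2 ratio of scaled counts, T9 over T25 (vertical axis), of each of the 82 transporter contigs by substrate group (horizontal axis), with point size for the total count and a black bar at the group's median. The medians run from 2.26 in the organic ion group and 2.06 in the vitamin group to -1.97 in the choline and amine group; values near 0 are missing because the table holds none.

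Organic ion transporters lay on a single side, with 8 of 8 contigs higher in the T9 library. They include the organic anion transporting polypeptides, which carry large amphipathic anions, hormones and toxins in animals. The contig with the most counts of all transporters, c86028_g2_i1, belongs to them and had 20939 counts in T9 and 3087 in T25, 6.28-fold (6.04 to 6.52) higher in T9. Its nucleotide match is family member 2A1 (LOC105196351) of the fire ant Solenopsis invicta, known in mammals as a prostaglandin transporter, while its protein match is named member 1A5. A further contig matched to the same gene, c86028_g1_i1, had 168 counts in T9 and 23 in T25, 6.76-fold (4.36 to 10.96) higher. Member 5A1 (c30585_g1_i1) had 10270 counts in T9 and 1931 in T25, 4.92-fold (4.69 to 5.17) higher. It had the highest level per length of the transporters in T9, with 79.4 FPKM in T9 and 14.7 FPKM in T25. A further contig matched to that gene (c64866_g1_i1) had 171 counts in T9 and 31 in T25 and was 5.10-fold (3.47 to 7.75) higher. Organic cation transporters move positively charged metabolites and drugs, and the leading one (c89733_g2_i2) had 1195 counts in T9 and 326 in T25, 3.39-fold (2.999 to 3.85) higher. The other 3 contigs were 2.64-fold to 5.55-fold higher. The group summed to 32973 counts in T9 and 5469 in T25.

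In the ion group, 16 of 18 contigs were on the higher side in T9. Their log2 ratios had a median of 1.78 over all 18. The contig with the largest ratio among them, c89849_g6_i9, is named for a sodium/potassium/calcium exchanger, which expels calcium in exchange for sodium. It had 425 counts in T9 and 24 in T25, 16.4-fold (10.9 to 25.9) higher in T9. Putative inorganic phosphate cotransporters made up 8 contigs of the group, all higher. Their name comes from the Drosophila gene Picot, a member of a family whose relatives in mammals carry phosphate and organic anions with sodium. Among them c85616_g1_i3 had 5280 counts in T9 and 1436 in T25, 3.40-fold (3.21 to 3.61) higher. The most counts were those of c86697_g1_i1, with 5811 in T9 and 1945 in T25, 2.77-fold (2.63 to 2.91) higher. Its protein match in NR is an acyl-CoA desaturase, a fat enzyme, while its nucleotide match and its MFS_1 domain are those of a transporter, so its name is uncertain.

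A single S. invicta phosphate cotransporter gene, LOC105196548, was the match of 4 contigs with different ratios. In T9 and T25 they had 383 and 25 counts (c86744_g1_i1), 199 and 19 (c63403_g1_i1), 334 and 54 (c89082_g1_i1), and 304 and 64 (c103483_g1_i1). All 4 were higher in T9, by 14.2-fold (9.46 to 22.2), 9.69-fold (6.05 to 16.4), 5.72-fold (4.28 to 7.78) and 4.40-fold (3.35 to 5.85) in that order. The interval of c86744_g1_i1 does not overlap those of c89082_g1_i1 and c103483_g1_i1. Contigs that share a best match can be pieces or variants of 1 gene or separate S. japonica genes, and the descriptions do not tell these apart.

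The rest of the ion group was named for metals, for acid-base ions and for sulfate or other anions of solute carrier family 26. A contig of that family (c89923_g2_i4) had 89 counts in T9 and 23 in T25. Its only protein domain, DDE_3, is not that of a transporter, so its name is uncertain. Zinc transporter 1 (c88518_g1_i4), which in mammals exports zinc from the cell, had 524 counts in T9 and 83 in T25 and was 5.84-fold (4.63 to 7.46) higher. A contig of the importer ZIP6 (c88871_g3_i1) had 89 counts in T9 and 26 in T25, and was 3.17-fold (2.03 to 5.11) higher. The mitochondrial sodium/hydrogen exchanger 9B2 (c89124_g1_i1), which trades sodium for protons, had 90 counts in T9 and 8 in T25, 10.4-fold (5.06 to 24.8) higher. These 3 and the other contigs not singled out by the naming rule were chosen after their values were seen. A sulfate anion transporter (c88845_g1_i4) had 1637 counts in T9 and 562 in T25, 2.70-fold (2.45 to 2.97) higher.

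Carriers of bicarbonate, the main buffer of body fluids, were found on both sides. An electroneutral sodium bicarbonate exchanger (c85524_g1_i1) had 100 counts in T9 and 33 in T25 and was 2.80-fold (1.88 to 4.29) higher. Sodium bicarbonate cotransporter 3 (c88436_g1_i2) had 28 counts in T9 and 90 in T25, 3.47-fold (2.25 to 5.52) lower. The lowest ratio of the ion group was that of c29304_g1_i1, whose nucleotide match is again an electroneutral sodium bicarbonate exchanger, with 6 counts in T9 and 61 in T25, 10.99-fold (4.77 to 31.1) lower. The first and the last of these matches come from different ant species, and whether they are pieces of 1 gene is not known.

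Of the 8 vitamin transporter contigs, 7 lay on the higher side in T9, and 4 of the 7 were at least 4-fold higher. Among nucleotide-matched contigs on the higher side, 597 of 1125 were at least 4-fold higher. The 4 include c117075_g1_i1, with 10 counts in T9 and 1 in T25. Insects cannot make most B vitamins and take them from food or from symbionts. Thiamine transporter 2-like (c89324_g3_i3) had 953 counts in T9 and 154 in T25, 5.73-fold (4.83 to 6.83) higher in T9. A related gene of the same name (c89324_g2_i2) had 610 counts in T9 and 177 in T25 and was 3.19-fold (2.69 to 3.79) higher. The riboflavin transporter contig c8852_g1_i1 had 605 counts in T9 and 110 in T25, 5.09-fold (4.15 to 6.29) higher. Sodium-dependent multivitamin transporters take up biotin and pantothenate in mammals. Of their contigs, c80006_g1_i4 had 640 counts in T9 and 110 in T25, 5.38-fold (4.39 to 6.65) higher, and c88728_g1_i4 had 641 in T9 and 218 in T25, 2.72-fold (2.33 to 3.19) higher. A pair of small multivitamin contigs matched to 1 gene of another ant (LOC105458117) summed to 31 counts in T9 and 6 in T25, 4.78-fold (1.97 to 14.0) higher. The 1 contig on the lower side, named for the putative thiamine transporter SLC35F3 (c89768_g13_i2), had 34 counts in T9 and 90 in T25, 2.86-fold (1.91 to 4.38) lower.

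Monocarboxylate transporters carry lactate, pyruvate, ketone bodies and related acids, and 7 of 9 contigs were higher in the T9 library. A single S. invicta gene, monocarboxylate transporter 9 (LOC105193726), was the match of contigs with unlike ratios. The contig c85360_g1_i2 had 2008 counts in T9 and 509 in T25, 3.65-fold (3.31 to 4.03) higher, and c85360_g2_i1 had 129 counts in T9 and 2 in T25, 59.7-fold (16.2 to 498) higher. The second of these holds the largest ratio of all transporters, and its interval lies above that of the other. Its protein match is named probable transporter MCH2, as in yeast.

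Sodium-coupled monocarboxylate transporter 1, which in mammals takes up lactate and short-chain fatty acids with sodium, was the name of 5 contigs, each matched to a different gene. On the higher side were 4 of them, between 2.89-fold and 4.45-fold. The largest ratio was that of c88557_g2_i4, with 1533 counts in T9 and 319 in T25, 4.45-fold (3.94 to 5.03) higher. Those with the most counts were c81511_g1_i2, with 1695 in T9 and 541 in T25, and c1184_g1_i1, with 1628 in T9 and 521 in T25, 2.90-fold (2.63 to 3.20) and 2.89-fold (2.62 to 3.20) higher. The remaining gene went the other way, since c86653_g1_i1 had 423 counts in T9 and 1547 in T25, 3.95-fold (3.55 to 4.41) lower. Monocarboxylate transporter 10, which in mammals carries aromatic amino acids, had 45 counts in T9 and 11 in T25 in c81750_g1_i1 and 1 in T9 and 18 in T25 in c61230_g1_i1. The second of these was 19.4-fold (3.07 to 810.4) lower, with its wide interval from the single count in T9.

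Amino acid transporters lay on both sides, 8 contigs being higher in T9 and 9 being lower. The higher ones had most of the counts, and the group summed to 13221 in T9 and 2662 in T25. Without the leading contig these sums were 4962 in T9 and 1532 in T25, 2.997-fold higher in place of 4.596-fold. That contig, proton-coupled amino acid transporter 2 (c79876_g1_i1), moves small neutral amino acids with protons in mammals. It had 8259 counts in T9 and 1130 in T25, 6.76-fold (6.36 to 7.20) higher, or 64.5 FPKM in T9 and 8.71 FPKM in T25. A contig named for pathetic (c63206_g1_i1), a member of the same family described in Drosophila, had 39 counts in T9 and 5 in T25, 7.22-fold (2.84 to 23.5) higher.

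Glycine transporter 2-like (c81590_g1_i2) showed the largest ratio of the amino acid group, with 1291 counts in T9 and 75 in T25, 15.9-fold (12.6 to 20.4) higher. In vertebrates its namesake clears glycine at synapses. Excitatory amino acid transporter 3 (c82982_g1_i2), a glutamate carrier, had 864 counts in T9 and 124 in T25 and was 6.45-fold (5.34 to 7.85) higher. The mitochondrial basic amino acid transporter (c16412_g1_i1), which brings arginine and lysine into mitochondria in mammals, had 1230 counts in T9 and 296 in T25, 3.85-fold (3.38 to 4.38) higher. The b(0,+)-type transporter (c83288_g2_i2), a carrier of cystine and basic amino acids in mammalian gut and kidney, had 443 counts in T9 and 150 in T25, 2.73-fold (2.27 to 3.31) higher.

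Cationic amino acid transporter 2, an importer of arginine and lysine, appeared on both sides under different matched genes. The contig matched to the Monomorium pharaonis gene (c90337_g6_i3) had 824 counts in T9 and 114 in T25 and was 6.69-fold (5.49 to 8.21) higher. The 3 contigs matched to the S. invicta gene LOC105205888 were all lower, and together they had 16 counts in T9 and 93 in T25, 6.28-fold (3.67 to 11.4) lower. Most of those counts belong to c82588_g2_i1, with 13 in T9 and 70 in T25.

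Transporters named for the transmitters GABA and glycine lay on both sides, with 4 of 6 contigs lower. Among nucleotide-matched contigs, 622 of 1064 with totals under 100 counts were lower, and 286 of 611 from 100 counts to below 1000. The GABA or glycine contig with the most counts, glycine transporter 2-like, is among the higher ones, as given above. GABA transporter 1, which ends the action of this inhibitory transmitter by uptake, gave c87519_g1_i2 with 60 counts in T9 and 326 in T25, 5.87-fold (4.45 to 7.87) lower, and c87444_g2_i1 with 71 in T9 and 197 in T25, 2.998-fold (2.28 to 3.99) lower. Another contig of this name (c30941_g1_i1) had 89 counts in T9 and 31 in T25 and was 2.66-fold (1.75 to 4.14) higher. Glycine transporter 1 gave 2 contigs of 1 gene, each with a total under 100 counts. They summed to 23 counts in T9 and 72 in T25, 3.38-fold (2.09 to 5.67) lower. The remaining contigs on the lower side, a neutral amino acid transporter 11 (c75578_g1_i1) and a large neutral amino acid transporter subunit (c5882_g1_i1), had 7 and 5 counts in T9 and 26 and 23 in T25.

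Choline is taken up by nerve endings for the synthesis of acetylcholine, and all 4 choline transporter contigs were lower in the T9 library. High-affinity choline transporter 1 (c90269_g1_i1) had 108 counts in T9 and 476 in T25, 4.76-fold (3.86 to 5.92) lower. The other 3 had 14, 6 and 4 counts in T9 and 47, 28 and 21 in T25, and were 3.63-fold to 5.67-fold lower. The last of them (c90709_g1_i1) is named choline transporter-like protein 1, not high-affinity choline transporter. All 3 have totals under 100 counts, where 622 of 1064 nucleotide-matched contigs were lower as well. In the range of c90269_g1_i1, from 100 counts to below 1000, 286 of 611 were lower. The vesicular acetylcholine transporter (c89848_g3_i1), which loads acetylcholine into vesicles and was left out by the choice of names, had 166 counts in T9 and 616 in T25, 4.01-fold (3.37 to 4.79) lower. With it, all 5 synaptic and vesicular transporter contigs left out by name were lower, with 205 counts in T9 and 886 in T25. Of these, c86883_g1_i1, c86883_g2_i2 and c86883_g3_i1 share an assembly number, and whether they are pieces of 1 gene is not known. Synaptic vesicle glycoprotein 2C-like and 2B-like contigs, whose names hold no transporter word, were higher and are given under Other observations. The nerve contigs given above were lower in most cases, and their part in the choline and vesicular values was not tested.

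Carriers named for noradrenaline, an amine transmitter of vertebrates, were higher instead. The contig c19615_g1_i1 had 730 counts in T9 and 274 in T25, 2.46-fold (2.14 to 2.84) higher, and c55561_g1_i1 had 559 counts in T9 and 179 in T25, 2.89-fold (2.44 to 3.44) higher. These have no protein match, and their name rests on the nucleotide match alone. Summed, the choline and amine group had 1421 counts in T9 and 1025 in T25, and without c19615_g1_i1 the sums were 691 in T9 and 751 in T25, so that their order rests on that contig.

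The sugar carriers kept by the choice of names were 3 contigs. The facilitated glucose transporter member 8 (c13185_g1_i1), which lets glucose pass along its gradient, had 6490 counts in T9 and 1690 in T25, 3.55-fold (3.37 to 3.75) higher in T9, or 41.6 FPKM in T9 and 10.7 FPKM in T25. The others belong to the family that brings nucleotide sugars into the Golgi apparatus for the building of glycoproteins. Member C2 of solute carrier family 35 (c65546_g2_i1) had 30 counts in T9 and 7 in T25, 3.97-fold (1.71 to 10.7) higher. The GDP-fucose transporter 1 contig (c89854_g3_i1) had 6 counts in T9 and 41 in T25, 7.38-fold (3.12 to 21.3) lower. Without the glucose transporter the group had 36 counts in T9 and 48 in T25. Among the 10 contigs left out for trehalose or Tret1 in their descriptions, 8 were higher and 2 lower. Their median total was 1161 counts, and 81% of nucleotide-matched contigs with 1000 counts or more were higher as well. The 10 include c86489_g1_i4, whose nucleotide match is named facilitated glucose transporter member 8-like. It had 366 counts in T9 and 91 in T25, 3.72-fold (2.95 to 4.74) higher.

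ABC proteins were found on both sides, 6 contigs being higher in T9 (60%) and 4 being lower. Their median total of 640 counts lay in the range where 53.2% of nucleotide-matched contigs were higher. Except for 1, all ABC contigs carry names of sub-family G, whose members export sterols in mammals and carry eye pigment precursors in Drosophila. On the higher side, c89213_g2_i2, named for member 4 by its protein match and for member 1 by its nucleotide match (LOC105200283), had 4661 counts in T9 and 1053 in T25, 4.10-fold (3.83 to 4.38) higher. On the lower side, c86185_g1_i1, named for member 8, which exports plant sterols and cholesterol in mammals, had 776 counts in T9 and 3520 in T25, 4.90-fold (4.53 to 5.30) lower. This contig had the highest level per length of all transporters in T25, with 4.90 FPKM in T9 and 21.9 FPKM in T25. The group summed to 9685 counts in T9 and 6783 in T25, and without c89213_g2_i2 to 5024 in T9 and 5730 in T25, so the order of the sums rests on that contig.

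Further contigs named for sub-family G member 4 went in both directions according to their matched gene. Those of LOC105196997, c90365_g2_i1 and c90365_g3_i1, had 270 and 3 counts in T9 and 775 and 32 in T25, and were 3.10-fold (2.70 to 3.58) and 11.5-fold (3.61 to 58.8) lower. A contig of LOC105200260 (c84893_g1_i1) had 155 counts in T9 and 57 in T25, 2.52-fold (1.85 to 3.47) higher, and 1 of LOC105200256 (c26176_g1_i2) had 28 in T9 and 7 in T25, 3.70-fold (1.58 to 10.0) higher. The exception to sub-family G was Sur (c89113_g1_i1), a member of sub-family C that regulates a potassium channel and transports nothing itself. It had 2617 counts in T9 and 997 in T25, 2.43-fold (2.26 to 2.62) higher.

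Among the solute carriers without a named substrate, the MFS-type transporter SLC18B1-like (c73792_g2_i2), whose mammalian relative carries polyamines into vesicles, had 3957 counts in T9 and 447 in T25, 8.19-fold (7.43 to 9.05) higher. XTRP3, a carrier of proline and related compounds in mammals, was lower in both of its contigs. The larger (c88874_g2_i3) had 261 counts in T9 and 617 in T25, 2.56-fold (2.21 to 2.96) lower, and c89602_g2_i1 had 6 counts in T9 and 29 in T25, 5.22-fold (2.13 to 15.4) lower.

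**Figure D4:**
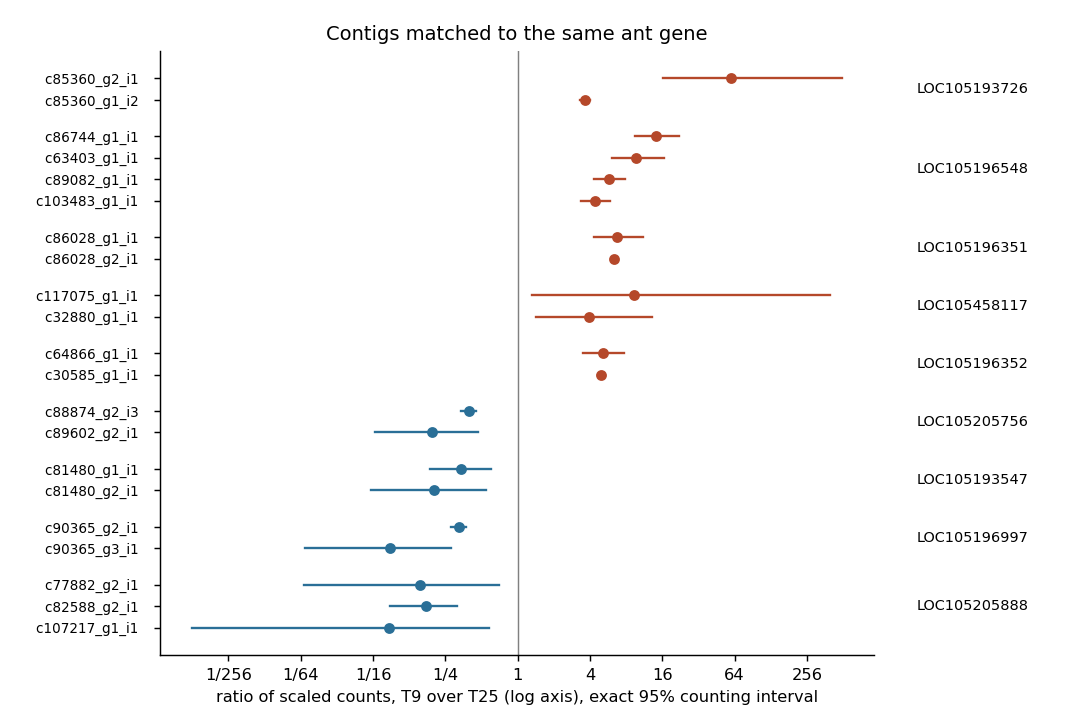
Ratio of scaled counts, T9 over T25 (horizontal log axis), with its exact 95% counting interval (lines), for the 21 contigs that share their matched ant gene with another transporter contig; the gene is named at the right. In each of the 9 genes the contigs lie on a single side of 1, while for LOC105193726, LOC105196548 and LOC105196997 some intervals do not overlap.

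The 82 contigs matched 70 different genes by their nucleotide match, all of them of ants and 58 contigs of S. invicta. More than 1 contig was found for 9 genes, with 21 contigs in all, and in 0 of the 9 genes did the contigs lie on both sides. Protein domains, which the choice by name did not use, were given for 46 contigs. The major facilitator domain MFS_1, which solute carriers of several substrates share, was present in 7 contigs, 7 of them higher in T9. Contigs with this domain that were left out by name, c12936_g1_i1 and c89848_g3_i1, were lower. They had 5 and 166 counts in T9 and 60 and 616 in T25. Those with this domain outside the transporter names, c87401_g1_i1 and c88116_g1_i1, were higher. Among the transporter contigs, the sodium/solute symporter domain SSF was present in 7, with 5 higher and 2 lower. The sodium/neurotransmitter symporter domain SNF was present in 5, with 1 higher and 4 lower. Beside these counts, 69.5% of all transporter contigs and 54.7% of all contigs of the table were higher.

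Genes that power or accompany these carriers were few in the table. Of 12 contigs named for V-type proton ATPase, sodium/potassium-transporting ATPase, calcium-transporting ATPase, carbonic anhydrase or aquaporin, 4 lay on the higher side and 8 on the lower side in T9. Their median total was 221 counts, in the range where 53.2% of nucleotide-matched contigs were higher. Some had totals under 100 counts, where 41.5% were higher. The proton pump V-type ATPase, which energises many insect epithelia, gave its proteolipid subunit (c26171_g1_i1) with 17170 counts in T9 and 6090 in T25, 2.61-fold (2.53 to 2.69) higher, and a subunit a contig (c89487_g2_i4) with 252 counts in T9 and 745 in T25, 3.20-fold (2.77 to 3.70) lower. Of 6 contigs with the name of carbonic anhydrases, which make bicarbonate from carbon dioxide, 5 were lower. Among the 5, c89861_g2_i1 is named carbonic anhydrase-related protein 10, not carbonic anhydrase. The higher one, beta carbonic anhydrase 1 (c87646_g1_i4), had 578 counts in T9 and 219 in T25, 2.44-fold (2.09 to 2.87) higher. The median total of the 6 contigs, 266 counts, lay in that same range of 53.2%. A water channel, aquaporin AQPAe.a-like (c79791_g1_i1), had 305 counts in T9 and 9 in T25, 31.4-fold (16.3 to 69.2) higher.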

How the data were processed

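RNA of whole S. japonica workers was sequenced by the authors with a strand-marking kit, in 1 library per temperature. The methods state the number of adults pooled per library and also speak of independent preparations of each treatment. The labels give a single library for each, so how the preparations entered a library is not known. By the study's methods and the submitters' processing notes, reads were checked with FastQC 0.11.7 and trimmed with Trimmomatic 0.38, the pooled reads were assembled with Trinity, contigs were clustered with CD-HIT, and each library was aligned with Bowtie 1.1.2 and counted with RSEM. The deposited count is a whole number per contig (smallest 1, since the authors' filter removed zeros). For FPKM, the authors divided by contig length and depth, and the values were used as deposited. The deposited log2 values behave as log2(CPM + 1), with relative log expression scaling named in the methods, and undoing the logarithm gave 1 library size for all contigs of a library. The authors' columns of fold change, mean abundance and p-values were not used.

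Ratios, exact binomial intervals (confidence level 95%) and counts past 4-fold (log2 ratio of 2 with a pseudocount of 1) were computed with scipy 1.17.1, pandas 2.3.3, numpy 2.4.6 and matplotlib 3.10.9 under Python 3.11.15, and tested on simulated data. Reads are not independent molecules, so intervals are lower limits of the error. Substrates were read from the descriptions that matched. Contigs named are the 3 with the largest total in each group, both ends of the log2 ratio (10 contigs each) among those of at least 100 counts (only 9 of these were lower in T9), and contigs of the same matched genes. Members and lists were chosen with earlier results of these data known, and the group for choline and amines after the names were seen. No sequence of these contigs was analysed here. Alternatives covered scaling, pseudocount, a count minimum, the database, the matched organism, the counting unit and the fold threshold.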

Additional observations from a re-analysis of the deposited data

How the results depend on the processing

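No paired analysis was possible because each temperature has 1 library. Scaling by the clean read pairs of the study raised log2 ratios by 0.13. The FPKM ratio raised them by a median of 0.131 where FPKM was above 5, while contigs of low FPKM moved either way (c85360_g2_i1 to 6.036, c90365_g3_i1 to -3.421). Of the values under these scalings or with a pseudocount of 0.5 or 5, 0 of 176 for the 44 named contigs changed direction. Of the 57 higher and 25 lower contigs, names in the protein database alone left 32 and 11, and a total of at least 100 counts left 9 on the lower side. At least 4-fold higher were 27 contigs, which became 41 at 3-fold and 7 at 8-fold. At least 4-fold lower were 16, which became 7 with a pseudocount of 5, 3 with a total of at least 100 counts, 6 with protein names alone and 3 at 8-fold. With at least 100 counts the higher share became 100% for sugar and 77.8% for amino acid transporters, and for choline and amine contigs it was 66.7% in place of 33.3%. With protein names alone it became 100% for sugar, vitamin and ion transporters and 0% for choline and amines. Without the contig of largest counts, a step chosen after the data were seen, the ratio of the summed counts of T9 to T25 turned to 0.694 for sugar, 0.851 for choline and amine, 0.811 for ABC proteins and 0.383 for the carriers without a named substrate. Scaling by clean read pairs less the mitochondrial contig, chosen after the data were seen, moved log2 ratios by -0.041 and no count by over 1.5 times. Matching to ants, summing contigs of a matched gene and leaving out the 2 contigs whose names speak against a transporter moved no count by over 1.5 times. The 7 contigs with 3 or fewer counts in a library have wide intervals.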

Other observations

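Transporters also stood among contigs whose names did not say so. A transporter domain in the Pfam annotation, sought with a choice of domains made after the data were seen, was found in 10 contigs outside the transporter names, 9 of them higher in T9 and 1 lower. Their median total was 2054 counts, and 81% of all nucleotide-matched contigs with 1000 counts or more were higher as well. At least 4-fold higher were 3 of them. Among these, proteins with the sugar transporter domain were named synaptic vesicle glycoprotein 2C-like (c63559_g1_i3), with 30583 counts in T9 and 4519 in T25, and 2B-like (c63358_g1_i1), with 1884 in T9 and 209 in T25, which were 6.26-fold (6.07 to 6.46) and 8.34-fold (7.23 to 9.67) higher. An uncharacterized protein with the zinc transporter domain Zip (c80129_g1_i1) had 648 counts in T9 and 97 in T25 and was 6.18-fold (4.99 to 7.73) higher. Scarlet (c88997_g1_i3), an ABC protein that carries eye pigment precursors in Drosophila, had 927 counts in T9 and 234 in T25, 3.67-fold (3.17 to 4.25) higher. The exception was an uncharacterized contig with an ABC membrane domain (c80910_g1_i1), with 19 counts in T9 and 68 in T25, 3.87-fold (2.30 to 6.81) lower.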
